A study of Homo sapiens with 12 samples.

Results

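Hs294T is a human line derived from metastatic melanoma, and this comparison set its drug-resistant cells against its control cells. The 6 libraries were taken by their labels, 3 from Hs294T resistant and 3 from Hs294T control cells, out of 12 libraries in the series. The other 6 came from WM9, a second metastatic melanoma line handled the same way. All groups carry the same BRAF genotype in the labels, a valine-to-glutamate substitution. Per the labels, resistant cells had been kept in stepwise rising vemurafenib and cobimetinib until 0.4 µM of each was reached. Control cells received rising amounts of DMSO, the solvent of both drugs, over the same course. Whether the drugs were still in the medium when RNA was taken is not given in the sources used here. Acquired resistance, exposure to the drugs and long separate culture therefore cannot be told apart, and an effect of resistance means the difference between these groups of libraries. The series asked how cells resistant to both drugs differ in their transcripts from sensitive cells of the same line.

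BRAF, MEK and ERK are kinases that act one after the other to carry growth signals, and mutant BRAF keeps this chain active without a signal from outside. Vemurafenib blocks mutant BRAF and cobimetinib blocks MEK, the next kinase. Melanoma cells that grow despite such drugs are known to do so by switching the same chain back on, by using other growth pathways, or by moving between melanocytic and less differentiated states, each with its own transcripts.

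Rows of the deposited table come without gene names or identifiers. A feature, meaning 1 row of counts, is therefore named by its row number below the header. No marker gene could be looked up, so neither the labelled cell type nor the line was checked, and none of the pathways above can be read from the data. Overlapping features, and near-identical copies that could share reads, cannot be separated here.

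The Hs294T libraries held between 18068431 and 21925216 counts. Of the 78932 rows, 18615 passed a filter on low counts over all 12 libraries and were tested. Of these, 26 had no count in any Hs294T library and 18589 had at least 1. Levels are given as CPM, a count normalised to the effective size of its library, and 3 counts correspond to between 0.133 and 0.161 CPM. Reads carry no molecular identifiers and are not independent molecules, so floors and intervals from counts reflect counting error alone.

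The control libraries differed more among themselves than the resistant libraries, and resistant 2 and 3 were nearly identical. A chi-square test of counts over 16666 features has a mean of about 1 per feature when libraries differ by sampling noise alone. The mean was 3.06 for resistant 2 with 3, 36.6 and 33.3 for resistant 1 with 2 and with 3, and between 56.7 and 127 for pairs of controls. Resistant 2 and 3 thus differed by more than sampling noise but by far less than the other pairs. Both stayed in as separate samples, following the labels, and results are also given with their counts summed into 1 sample. That alternative sums a similar pair in the WM9 controls too. The median SD of log2 CPM within a group was 0.417 in control and 0.232 in resistant libraries. Among the controls, 1 and 2 were the farthest apart, with 23.9% of features at least 2-fold different and a chi-square mean of 127. These values were 15.8% and 56.7 for control 1 with 3, and 11.4% and 76.3 for control 2 with 3. Between groups, 43.3% to 49.6% of features were at least 2-fold apart in a pair of libraries. The first principal component separated the groups and held 86.4% of the variance, and the second, with 6.65%, placed control 1 at one end and control 2 at the other.

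Resistant cells differed from controls in 49.8% of the tested features, 9270 in all, with as many higher as lower. Called higher were 4635 features (24.9%) and called lower 4635 (24.9%; edgeR quasi-likelihood test, Benjamini-Hochberg adjusted p below 0.05, n = 3 per group). With the near-identical pairs summed, 4139 features were higher and 3413 lower, of which 3978 and 3283 were among those called before. Fewer lower than higher calls were left, also when any resistant library was left out, and the cause was not tested. Leaving out resistant 1, with resistant 2 and 3 kept separate, gave 4293 higher and 3787 lower. Leaving out resistant 2 gave 4185 and 3774, and leaving out resistant 3 gave 4169 and 3807. All 3 resistant libraries lay on one side of all 3 controls in 58.2% of tested features, above them in 5505 and below them in 5337.

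Typical changes were several-fold. The median log2 fold change was 1.90 in features called higher, or 3.74-fold, and -1.51 in those called lower, or 2.85-fold. Both medians stayed at these values when features with no count in the other group (222 higher, 198 lower) were set to the bound that a floor of 3 counts, taken over the group, allows. At least 8-fold differences, with such features at their bound, were found in 1369 higher and 1070 lower features, and at least 64-fold differences in 342 and 260. When the test asked for a change beyond 2-fold, 2586 features were higher and 2000 lower. It called 1401 and 1028 beyond 4-fold and 836 and 632 beyond 8-fold (edgeR glmTreat, adjusted p below 0.05). In 2521 features even the lowest resistant library was at least 2-fold above the highest control, and in 1776 even the highest resistant library was at least 2-fold below the lowest control.

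**Figure D1:**
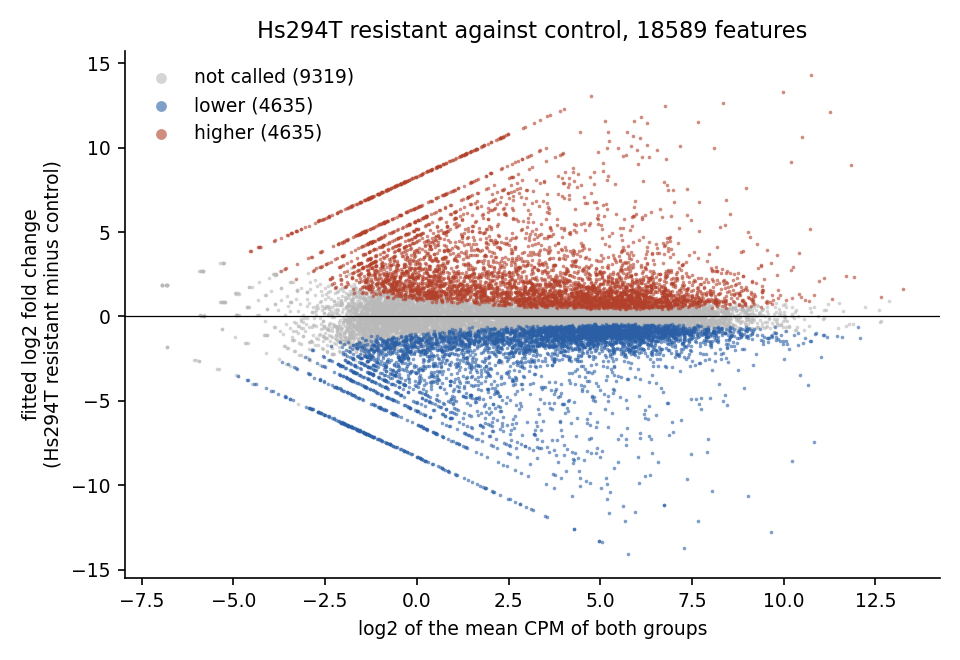
Fitted log2 fold change of each feature with a count in Hs294T (vertical axis, resistant minus control) against the log2 of the mean CPM of both groups (horizontal axis), with features called higher in red, called lower in blue and not called in grey. Called features lie at all levels, 4635 on each side, and the straight bands at the left edge are features with 0 or very few counts in 1 group, whose fitted values depend on the prior count.

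Features without a call were not shown to be equal between the groups. Of 9345 such features, 3859 (41.3%) had a 95% interval of the fold change that lay within 2-fold in either direction. For the other 5486 the interval reached 2-fold or could not be computed. The median standard error of a log2 fold change was 0.656 below 1 CPM and 0.256 between 10 and 100 CPM.

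Calls were spread over all levels of abundance. The called share was 42.5% of 4007 features with a mean below 1 CPM, 53.8% of 5443 between 1 and 10 CPM, and 51.3% of 6941 between 10 and 100 CPM. It was 48.1% of 2123 features between 100 and 1000 CPM and 51.5% of 101 features at 1000 CPM or more. Every class thus had called shares between 42.5% and 53.8%. The median size of called changes also differed between classes. It depends on what could be called, since the median standard error was 0.656 below 1 CPM and 0.256 between 10 and 100 CPM. These medians therefore do not show that changes were larger at low levels. The median absolute log2 fold change of called features was 2.95 in the lowest class, with features at 0 set to their bound, and 1.20 between 10 and 100 CPM. The most abundant class did not have the smallest median of called features, at 1.54. In it, 21 features were called at least 2-fold higher and 24 at least 2-fold lower.

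**Figure D2:**
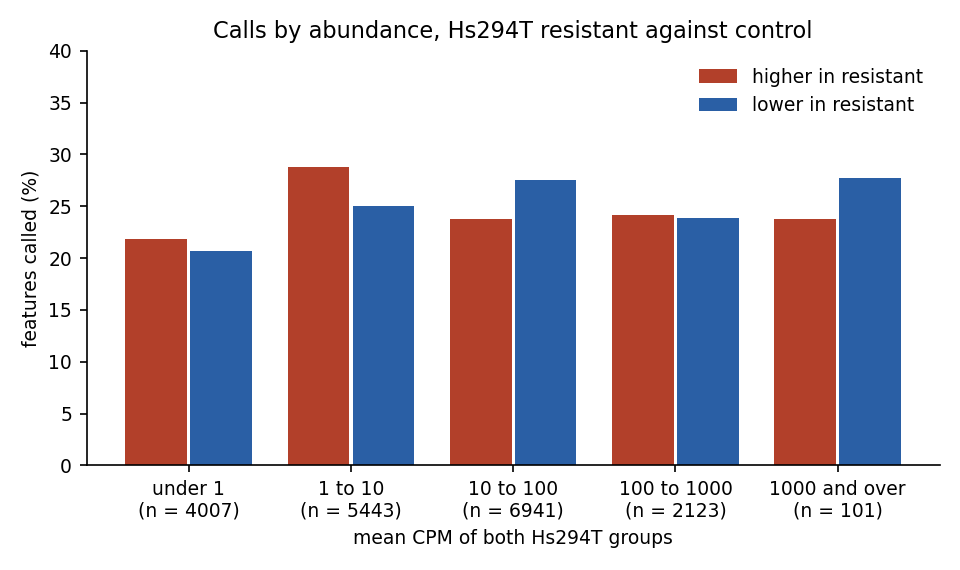
Share of tested features called higher (red) and lower (blue) in Hs294T resistant cells (vertical axis, %) in 5 classes of the mean CPM of both groups (horizontal axis, number of features in brackets). Each bar lies between 20.7% and 28.8%.

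The calls covered a large share of the counts of every library. Features called higher held 12.5%, 12.4% and 12.2% of the counts of control 1, 2 and 3, and 37.1%, 37.6% and 37.1% of the counts of resistant 1, 2 and 3. Features called lower held 36.2%, 35.0% and 37.4% of the control counts and 14.1%, 13.6% and 13.8% of the resistant counts. Features without a call held between 48.7% and 52.5% in every library. The same contrast chose these features, so the shares describe how much of each library the calls cover and are not tested. With calls from the fit with near-identical pairs summed, the share rose by 22.4 percentage points for higher features and fell by 15.3 percentage points for lower ones.

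**Figure D3:**
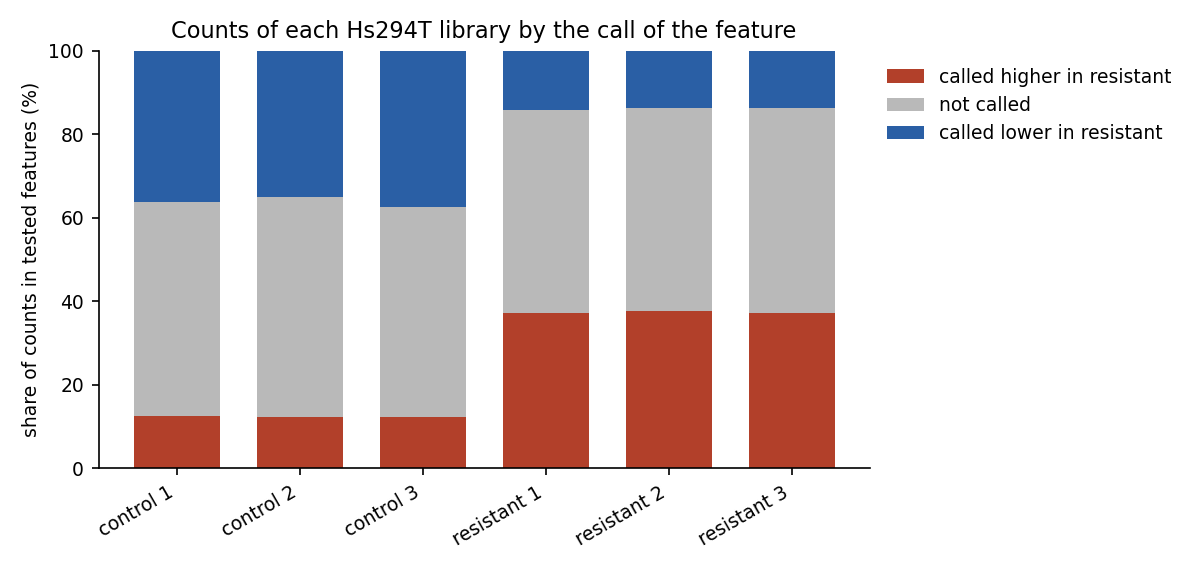
Share of the counts in tested features (vertical axis, %) held by features called higher (red), not called (grey) and called lower (blue) in each of the 6 Hs294T libraries (horizontal axis). The red part lies between 12.2% and 12.5% in controls and between 37.1% and 37.6% in resistant libraries.

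The most abundant features differed between the groups. Of the 100 features with the highest mean CPM in control cells, 47 were also among the 100 highest in resistant cells (47% of each list). Over all tested features 24.9% were called in each direction. Of the 100 highest in control, 46 were called lower and 7 higher, and of the 100 highest in resistant, 47 were called higher and 9 lower. Lists chosen for a high level in 1 group tend to be lower in the other, so these counts describe the lists only. Between classes of level, 1577 of the 2160 features at 100 CPM or more in control (73.0%) were also at 100 CPM or more in resistant cells. A further 536 lay between 10 and 100 CPM, 27 between 1 and 10 CPM and 20 below 1 CPM. In the other direction, 24 features had a mean below 1 CPM in control and of 100 CPM or more in resistant cells, and 46 went from between 1 and 10 CPM to that class.

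How many features shared out the counts did not differ beyond the spread of the controls. The number of features that together held 50% of the counts was 903, 611 and 787 in control 1, 2 and 3 and 661, 703 and 693 in resistant 1, 2 and 3. The control values enclosed the resistant ones (two-sided exact permutation p = 0.4, n = 3 per group, where 0.1 is the smallest p possible). The difference of -81.3 features became -159.3 without control 2 and -13.3 without control 1. When every library was thinned to 18068431 counts, 33246, 27846 and 26647 rows had at least 1 count in control 1, 2 and 3, and 29338, 29558 and 31380 in the resistant libraries. Control 1 had the most rows and control 2 and 3 the fewest. The resistant mean was 845.7 rows higher (two-sided exact permutation p = 0.8, n = 3 per group). This difference was 2846 rows without control 1 and -454 rows without control 3. The highest single feature took 0.655%, 0.852% and 0.738% of the counts in the controls and 1.35%, 1.47% and 1.48% in the resistant libraries, which did not overlap (two-sided exact permutation p = 0.1, n = 3 per group, the smallest possible).

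A feature was taken as on-off when each library of one group reached 10 CPM and no library of the other group exceeded 1 CPM. There were 159 that were on in resistant and off in control libraries and 124 the other way round, together 1.52% of tested features. The features on in resistant cells had mean levels there from 10.9 to 3447 CPM, with a median of 24.2 CPM, and 23 of them reached 100 CPM. In 11 of them the 3 control libraries held no count at all, and the median was 9 counts over the 3 libraries. Together they held 1.31%, 1.41% and 1.34% of the resistant counts, and between 0.00297% and 0.00423% of the control counts. The features off in resistant cells had control means from 11.3 to 1605 CPM, with a median of 33.5 CPM, and 19 reached 100 CPM. The 3 resistant libraries held no count for 12 of them and a median of 7 counts. Together they held 0.849%, 0.938% and 1.20% of the control counts. Leaving out any of the 6 libraries gave 165 to 181 features on and 124 to 143 off. Under this rule, leaving out a library can only keep or raise the numbers.

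The 25 features that gained the most CPM and the 25 that lost the most were examined as groups. The 25 gains were called higher without overlap, and their resistant means ran from 1173 to 14620 CPM with a median of 2572. They made up 28.6% of the summed gain of all features called higher, and 12 of the 25 were at least 8-fold higher. The nearest libraries of the groups were at least 2-fold apart in 20 of them. The 25 losses had control means from 1040 to 6127 CPM with a median of 2213, and made up 19.96% of the summed loss. At least 8-fold decreases were seen in 6 of these, and the nearest libraries were at least 2-fold apart in 11. Large gains were thus wider than large losses in this pair of lists. In WM9, where 30.3% of all tested features were called higher and 31.4% lower, 20 of the 25 gains were called higher, 2 lower and 3 not called. Of the 25 losses, 9 were called lower in WM9, 1 higher and 15 not called, so the lower calls were near the share over all features.

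A pair of features in each direction was chosen by rule, the one with the largest change in mean CPM and the one with the largest fold change among those whose effect differed from that in WM9 without a call in the same direction there. The feature row77916 had the largest gain in CPM and became the most abundant feature of resistant cells. It had 3103, 7061 and 4106 CPM in control 1, 2 and 3 and 14190, 14730 and 14930 CPM in resistant 1, 2 and 3. The resistant values lay close together, while control 2 was more than 2-fold above control 1. The log2 fold change was 1.62 (SE 0.39, edgeR adjusted p = 0.00307), and the feature moved from rank 7 among control means to rank 1. In WM9 it rose from 3059 ± 871 to 10596 ± 4045 CPM (SD, n = 3 each; edgeR adjusted p = 0.00117), with no difference shown between the effects in Hs294T and WM9 (-0.17 in log2 units, SE 0.54, edgeR adjusted p = 0.839).

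The feature row638 had 0 counts in the 3 Hs294T controls and 874, 1067 and 1186 counts in resistant 1, 2 and 3. These correspond to 42.5, 56.0 and 62.9 CPM. Set against 3 counts in the summed controls, the floor used here, it was at least 1108-fold higher (edgeR adjusted p = 1.64e-08). The WM9 libraries were at the floor in both states, with 1 count in the controls and 3 in the resistant libraries, so no fold is given there. Resistant Hs294T was thus the group of the 4 in which this row was found above the floor.

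The feature row23680 lost the most CPM. It had 1895, 4928 and 3902 CPM in control 1, 2 and 3 and 22.7, 20.3 and 18.5 CPM in resistant 1, 2 and 3. Control 1 was the lowest control and still lay far above all resistant libraries. After scaling for library size, summed counts were 169-fold lower in resistant cells (95% counting interval 160 to 179), with a log2 fold change of -7.445 (SE 0.48, edgeR adjusted p = 1.54e-08). In WM9 the fall was smaller, from 1024 ± 215 to 127.2 ± 54.0 CPM (SD, n = 3 each; log2 fold change -3.01, SE 0.39, edgeR adjusted p = 1.32e-05). The effects differed by -4.43 in log2 units (SE 0.54, edgeR adjusted p = 2.54e-05). Choosing the feature by its loss in Hs294T leans to a larger effect there, so this difference is a description.

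The feature row46481 had 465, 284 and 239 counts in control 1, 2 and 3 and 0 counts in the 3 resistant libraries. The control values correspond to 20.7, 15.3 and 11.4 CPM. Set against 3 counts in the summed resistant libraries, it was at least 309.9-fold lower (edgeR adjusted p = 1.1e-06). In WM9 it was present in both states, at 2.38 ± 0.98 CPM in control and 4.33 ± 2.89 CPM in resistant libraries (SD, n = 3 each), without a call (edgeR adjusted p = 0.132). A called difference between the lines was a condition for choosing this feature and row638, so it is no result about them.

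**Figure D4:**
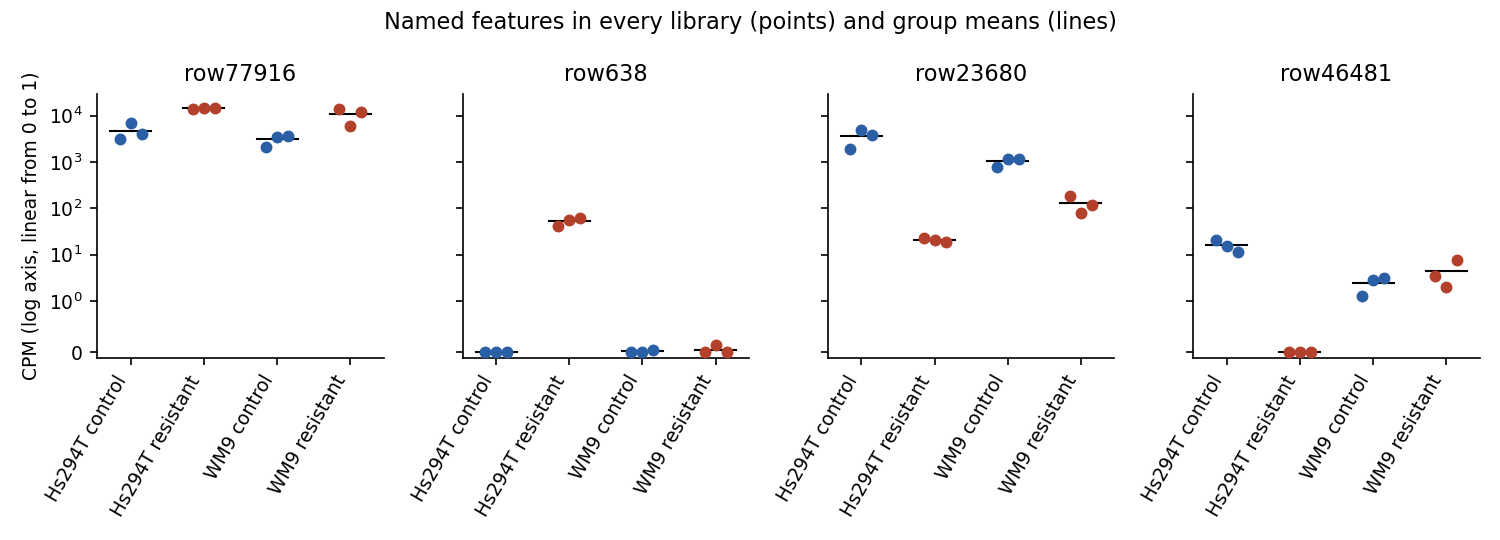
CPM of the 4 chosen features (vertical axis, logarithmic above 1 CPM and linear from 0 to 1) in every library of the 4 groups (horizontal axis), with points for libraries, blue for control and red for resistant, and lines for group means. In Hs294T the points of the states do not overlap in any of the 4, with row638 at 0 in all controls and row46481 at 0 in all resistant libraries.

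The Hs294T effects were set against those of the WM9 comparison, which uses other libraries. The control groups of the lines were nearly alike. Their median Pearson correlation of log2 CPM was 0.970 over 9 pairs of libraries, against 0.856 between the resistant groups. Over those control pairs it ranged from 0.944 to 0.974. Between replicates of Hs294T control it ranged from 0.968 to 0.98, so the ranges overlapped. Between resistant and control libraries of Hs294T the correlation ranged from 0.79 to 0.825, below the 0.851 to 0.866 between the resistant groups of the lines. Hs294T libraries thus correlated more with the same state of WM9 than with the other state of Hs294T. The line labels were not checked, and the reason for this was not tested. Different resistant groups were thus compared with closely correlated baselines. Whether this bears on the number of features called the same way was not tested. In WM9, 61.6% of all tested features were called, 30.3% higher and 31.4% lower. Of the features called higher in Hs294T by less than 2-fold, 56.6% were called higher in WM9, and of those higher by 8-fold or more, 64.9%. Of the features called lower by less than 2-fold, 48.9% were called lower in WM9, and of those lower by 8-fold or more, 73.6%. A call in the opposite direction was found for 6.49% of the features 8-fold or more higher and 9.57% of those 8-fold or more lower.

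The test of the difference between the lines was passed by 33.3% of all tested features, the Hs294T effect being higher in 2918 and lower in 3276 (edgeR quasi-likelihood test, adjusted p below 0.05). Upper-quartile factors turned this balance to 3348 higher and 2777 lower. With near-identical pairs summed these numbers were 1878 and 1949. Among features at least 8-fold higher in Hs294T, 643 of 1402 passed it, 568 with the larger effect in Hs294T and 75 with the smaller. Among features at least 8-fold lower, 492 of 1108 passed it, 462 with the larger effect in Hs294T and 30 with the smaller. Features chosen for a large effect in Hs294T lean to the larger effect there by that choice. Of the 159 on-off features on in resistant Hs294T, 119 were also called higher in WM9 and 10 lower. Of the 124 off, 110 were called lower and 3 higher. Over all tested features, 30.3% were called higher in WM9 and 31.4% lower. On-off features were chosen by their levels in Hs294T, and the control groups of the lines correlated closely. Such features may therefore start low or high in WM9 too, which favours a call in the same direction. These counts describe the lists only. The test of the difference was passed by 99 of the 159 (62.3%) and 68 of the 124 (54.8%), against 33.3% of all tested features. Choosing features by extreme levels in Hs294T leans to a called difference, so these shares are a description too.

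**Figure D5:**
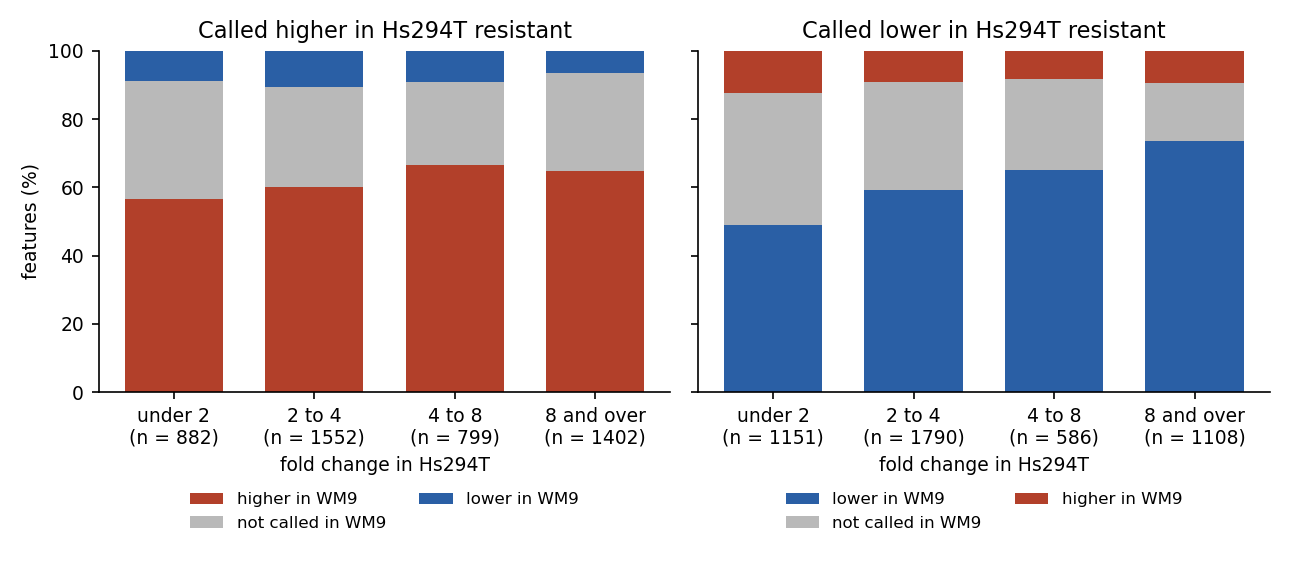
Share of features (vertical axis, %) called in the same direction, not called or called in the opposite direction in WM9, for features called higher (left) and lower (right) in Hs294T, in 4 classes of the fitted fold change in Hs294T (horizontal axis, number of features in brackets). The share called in the same direction is 56.6% to 66.6% on the left and 48.9% to 73.6% on the right.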

How the data were processed

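Transcript levels were measured by RNA sequencing. Per the labels' protocols, a stranded kit for mRNA was used. The authors deposited raw read counts, 1 column per library for 12 libraries, with no normalization. The submitters' processing notes list the build GRCh38 and, without roles, STAR 2.7.11b, Subread 2.0.8, featureCounts, FastQC 0.12.1 and fastp 0.24.0. For the annotation and strandedness, a setting was not given in the sources used here. No row was matched to a gene, coordinate or sequence.

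Rows passing filterByExpr by group (minimum count 10) were scaled with TMM factors and tested in R 4.3.3 with edgeR 4.0.16 and limma 3.58.1 (quasi-likelihood F test, robust, two-sided). All 12 libraries entered 1 fit with 4 group means and 8 residual degrees of freedom. Benjamini-Hochberg adjustment ran over all 18615 tested rows. Standard errors were the absolute log2 fold change over the root of F. Log2 CPM used a prior count of 2. The labels call the replicates biological.

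Features were named by row number. In each direction these were the largest difference of group means in CPM without overlap, and the largest fold change among features with at least 10 CPM in the higher group, a called difference between lines and no call in the same direction in WM9. Lists, members and rules were chosen with earlier results of these data known. Marker lists could not be used, since rows have no names. The code was run on simulated counts with few changed features and independent libraries. These data have many called features and near-identical libraries, so that run gives no error rates for them. Deviations from group means correlated at -0.21, -0.283 and 0.0738 between same-numbered libraries. The largest value of any pair was 0.384, for control 2 with resistant 1. With 3 libraries per group these values cannot decide whether libraries were paired. Replicate numbers were not used as pairs. Alternatives were other scaling factors, DESeq2 1.42.0, other filters, the Hs294T libraries alone, a replicate block, adjusted p below 0.01, summed near-identical pairs and each library left out.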

Additional observations from a re-analysis of the deposited data

Results flagged for a closer look

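A test of the difference between the resistance effects of Hs294T and WM9 called 2918 features with the higher effect in Hs294T and 3276 with the lower. Upper-quartile factors turned this balance to 3348 and 2777. Over all features the control groups of the lines were nearly alike (median correlation 0.970), but single features can differ in their control levels. How far the count reflects the control or the resistant groups was not tested.

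Among the named features, row638 and row46481 were chosen for a called difference between the lines, so their values are a description. Row23680 was chosen by its loss in Hs294T, which leans to a larger effect there, so its difference is a description too. It was -4.435 in log2 units (SE 0.536, edgeR adjusted p = 2.54e-05), and row23680 fell in both lines. Its control means were 3575 CPM in Hs294T and 1024 CPM in WM9. For row46481 they were 15.8 and 2.38 CPM. The difference of row46481 was -12.16, a fitted value that depends on the prior count since resistant Hs294T held 0 counts. The difference of row638 was 11.55 (SE 3.27, edgeR adjusted p = 0.0169), also no bound, with 4 counts of this row over all 6 WM9 libraries. Without WM9 control 3, which held 1 of these counts, no difference could be estimated for row638 (edgeR adjusted p = 1). The adjusted p of row638 ranged from 2.31e-07 to 1 over its alternatives.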

How the results depend on the processing

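The numbers of features called higher and lower stayed within 1.5 times in all 22 alternatives, between 3238 and 5141 higher and between 3107 and 4948 lower. Each named feature kept its direction and call in the Hs294T contrast in all 22. The filter that asks for 5 CPM in 3 libraries, which tests fewer features, gave 2286 features at least 2-fold higher and 2006 lower. At an adjusted p below 0.01 the features that differed between the lines numbered 1623 higher and 1962 lower in Hs294T, and with near-identical pairs summed 1878 and 1949, and the difference of row638 was not called at 0.01. Upper-quartile factors turned the balance between the lines to 3348 and 2777. The replicate block gave 4162 higher and 3792 lower features and changed no call of a named feature, and replicate numbers are not shown to pair libraries. The share of counts in features called higher, resistant minus control, was 24.9 percentage points and became 26.1 with DESeq2 calls, 25.3 with the Hs294T libraries alone, 21.8 at 0.01 and 22.4 with pairs summed, and that in features called lower, -22.4, became -16.6 at 0.01 and -15.3 with pairs summed. Leaving out a library gave 22.7 to 26.5 and -23.3 to -17.1. The alternative with the Hs294T libraries alone and the pair summed, with 3939 higher and 3410 lower, and those for shares were chosen after seeing the data. The difference in rows detected turned to -454 without control 3, and its range without other libraries reached 2846. The cause of these shifts was not tested. The spread was taken from all groups of a fit in every alternative, also where an arm was left with 2 samples. With the Hs294T libraries alone, these were the Hs294T groups.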

Other observations

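Called features lay next to each other in the table more often than over all rows. Among tested features that followed a feature called higher, 39.7% were called higher, against 24.9% of all tested features. After a feature called lower, 40.2% were called lower, against 24.9%. The longest stretch of neighbouring tested rows all called higher held 22 features, and the longest all called lower held 14. What the order of rows stands for is not given in the sources used here, and neighbouring rows may share reads.

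No tested row had the same 12 counts as another. Of the 3 resistant libraries, resistant 1 was the farthest from the other two in 60.9% of tested features, and of the controls, control 2 in 42.1% and control 1 in 35.6%.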
